A study of Mus musculus with 10 samples.

Results

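The CCN family of matricellular proteins was examined in luminal and basal epithelial cells of the mouse mammary gland. The members were taken by name, as Ccn1 (older symbol Cyr61), Ccn2 (Ctgf), Ccn3 (Nov), Ccn4 (Wisp1), Ccn5 (Wisp2) and Ccn6 (Wisp3), and all 6 were found among the 24594 genes of the count table. Of these, 4 had enough reads to be tested (Ccn1, Ccn2, Ccn4 and Ccn5), as 4 of the 14609 genes tested in all, and Ccn3 and Ccn6 had too few. The cells came from wild type C57BL/6J virgin mice that carried no transgene named in the labels and received no treatment, and the labels give no age. They were separated by FACS on EpCAM and CD49f into luminal cells, which line the lumen of the ducts, and basal cells, which contract around them, and RNA-seq gave 5 libraries of each. The luminal gate takes progenitor and mature luminal cells together, so each value is an average over both. Library totals ranged from 13203146 to 17565471 counts in luminal and from 13676558 to 17998165 in basal libraries. Groups follow the label for cell type, whereas the sample titles name the other one in all 10 libraries. Of the lineage markers, 10 of 10 luminal and 8 of 8 basal genes were higher in the cells of the cell type label. Among all genes tested, 33.6% were called higher in luminal and 31.2% in basal cells. Elf5, Prlr and Cnn1 had enough reads to be tested only through the cells where they were higher, so their calls add nothing. In the luminal libraries the basal markers stood at 0.143% to 0.878% of their basal level, and in the basal libraries the luminal markers stood at 0.0835% to 21.7% of their luminal level.

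CCN proteins are secreted into the extracellular matrix, where they act as signals rather than as structural parts. They bind integrins, the LRP co-receptors and syndecans, and they bind growth factors such as TGF-beta, BMPs and VEGF. Ccn1 and Ccn2 are textbook targets of YAP and TAZ acting with TEAD factors and of SRF acting with its MRTF cofactors, which respond to tension in the actin cytoskeleton. Most members are built of an IGF-binding-protein-like module, a von Willebrand type C module, a thrombospondin repeat and a cysteine-knot module, and CCN5 lacks the last of these. In the mammary gland, basal cells are myoepithelial, that is, contractile cells that lie on the basement membrane.

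The family is recognised by its cysteines. In the GENCODE M21 models the coding sequences hold 379 codons for Ccn1, 348 for Ccn2, 354 for Ccn3, 367 for Ccn4, 251 for Ccn5 and 354 for Ccn6. Cysteine codons number 38, 39, 40, 38, 29 and 37 in the same order, and Ccn5 is the shortest with the fewest. The same 12-codon stretch is given for each member because it displays the shared framework. It is read 5′ to 3′ from the GRCm38 transcripts, opens with a glycine codon and carries the cysteine codons in capitals. It covers codons 49 to 60 of Ccn1, 52 to 63 of Ccn2, 54 to 65 of Ccn3, 72 to 83 of Ccn4, 49 to 60 of Ccn5 and 71 to 82 of Ccn6.
Ccn1: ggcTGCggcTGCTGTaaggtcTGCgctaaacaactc
Ccn2: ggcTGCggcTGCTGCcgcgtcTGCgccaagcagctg
Ccn3: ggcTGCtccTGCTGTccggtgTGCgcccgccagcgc
Ccn4: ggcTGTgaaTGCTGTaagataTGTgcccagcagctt
Ccn5: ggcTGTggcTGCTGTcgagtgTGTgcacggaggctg
Ccn6: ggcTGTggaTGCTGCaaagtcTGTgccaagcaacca
All 6 stretches place the cysteine codons at the same positions, while the codons between them differ. The longest run of identical bases between the transcripts of any pair of members was 28, between Ccn2 and Ccn3.

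The promoter sequence was matched for 2 of the 6 members, Ccn1 and Ccn6. The 250 bases before the Ccn1 start are shown because Ccn1 is a TEAD and SRF target whose level and whose regulators are described here (RefSeq, GRCm38.p6, chr3:145649986-145650235, minus strand, 5′ to 3′, motif matches in capitals).
Ccn1 promoter: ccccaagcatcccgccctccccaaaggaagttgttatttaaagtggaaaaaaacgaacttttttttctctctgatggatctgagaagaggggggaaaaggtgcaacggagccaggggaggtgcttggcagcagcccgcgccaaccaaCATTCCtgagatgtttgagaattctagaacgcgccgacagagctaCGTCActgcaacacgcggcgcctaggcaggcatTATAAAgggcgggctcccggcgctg
Both strands were searched for 6 motifs. The TEAD core CATTCC matched from -103 to -98 of the start, the CRE core TGACG matched on the other strand from -58 to -54, and the TATA box TATAAA matched from -25 to -20. The matches did not overlap one another. CATTCC was found in 12.6%, TGACG in 17.8% and TATAAA in 12.4% of 32851 promoter windows of the same length. The AP-1 letters TGANTCA (6.75% of windows), the SMAD box GTCTAGAC (0.167%) and the CArG box bound by SRF (1.47%) were not in the Ccn1 window. Each match is a match of letters only.

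Of the 4 members tested, Ccn1, Ccn2 and Ccn4 were higher in basal cells and Ccn5 was higher in luminal cells, each past an adjusted p of 0.05 (edgeR quasi-likelihood). Ccn4 passed the count filter only through its basal libraries and Ccn5 only through its luminal libraries, so their calls and their lack of overlap add nothing. Among all genes tested, 64.8% were called, 31.2% as higher in basal and 33.6% as higher in luminal cells, so a call by itself does not set a member apart from other genes. For each of the 4, luminal and basal values were fully apart, with no overlap, against 50.1% of all genes tested. The sizes differed widely, from 2.14-fold for Ccn1 to 114-fold for Ccn5. In sorted bulk RNA, fewer cells of a type and less RNA per cell cannot be told apart.

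**Figure D1:**
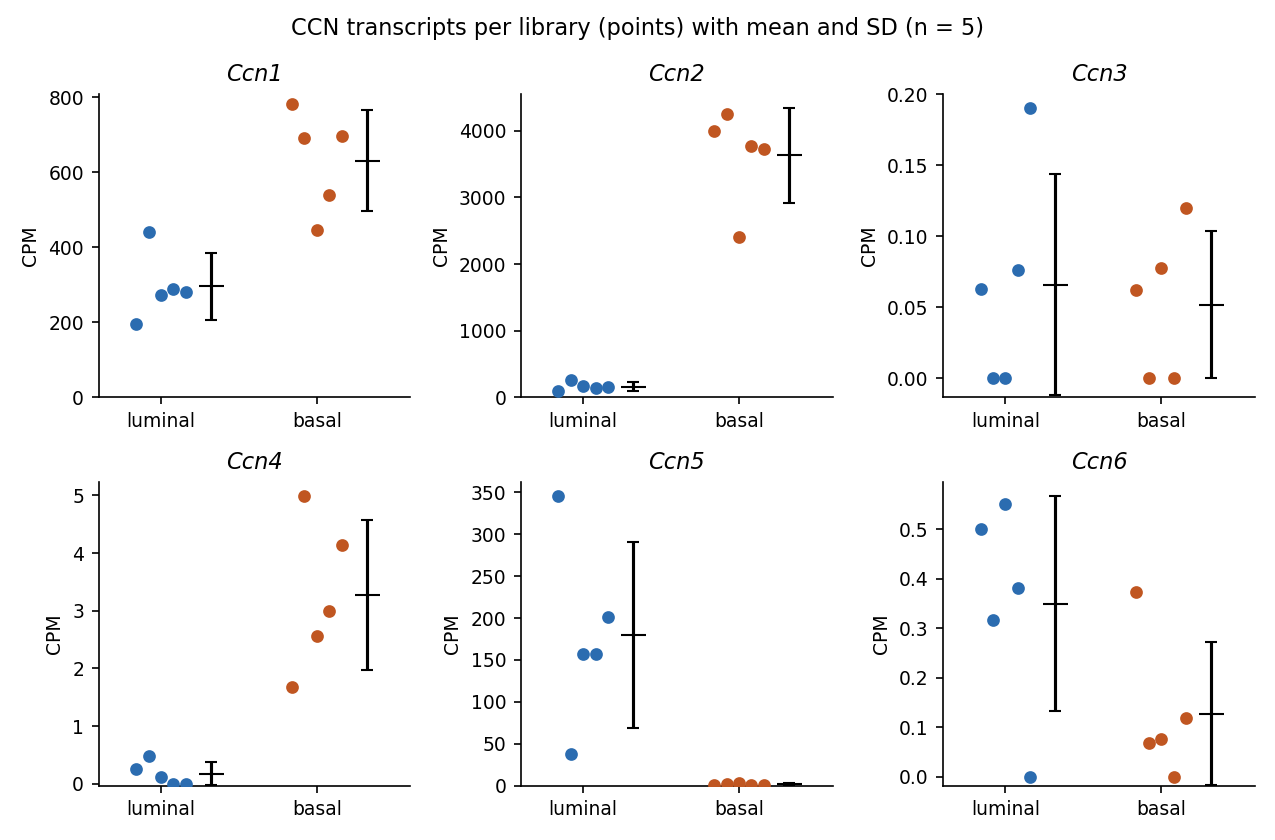
Level of each CCN transcript in depth-scaled counts (CPM, linear axis, scaled separately in each panel) in the 5 luminal and 5 basal libraries. Points are libraries, and the bar with whiskers is the mean and SD (n = 5). Ccn2 was at 2401 CPM or more in every basal library and at 264 CPM or less in every luminal library, Ccn5 showed the opposite order, and the Ccn3 and Ccn6 panels rest on at most 9 reads per library.

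Ccn1, an adhesive and angiogenic matrix signal (Entrez 16007, GRCm38 chr3:145646971-145649985, minus strand), had the smallest difference of the 4 members tested. In CPM, the count scaled to a common library depth by TMM factors, the luminal libraries 1 to 5 held 195, 441, 271, 287 and 282. The basal libraries 1 to 5 held 781, 692, 446, 540 and 697 CPM. Basal levels were higher, but the highest luminal library (441 CPM) and the lowest basal library (446 CPM) lay side by side. The mean was 295 ± 89.4 CPM for luminal and 631 ± 135 CPM for basal cells (SD, n = 5). The log2 fold change, luminal against basal, was -1.10 (SE 0.22, edgeR quasi-likelihood, Benjamini-Hochberg adjusted p = 0.000491), and 2 SE on either side of it span -1.53 to -0.66. All 5 same-numbered pairs had the higher value in basal cells, with log2 ratios of luminal to basal from -2.00 to -0.65. Tested against a 2-fold change instead of no change (edgeR's glmTreat), the difference was not past the threshold (adjusted p = 0.378).

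Ccn2, connective tissue growth factor (Entrez 14219, chr10:24595442-24598683, plus strand), was the most abundant member in basal cells. The luminal libraries held 91.5, 264, 164, 131 and 146 CPM, and the basal libraries held 3998, 4250, 2401, 3775 and 3733 CPM. The lowest basal library, replicate 3, was still far above every luminal library. The mean was 159 ± 64.4 CPM for luminal and 3631 ± 718 CPM for basal cells (SD, n = 5). The log2 fold change was -4.51 (SE 0.29, edgeR quasi-likelihood, Benjamini-Hochberg adjusted p = 1.04e-08), which is 22.8-fold, and the luminal mean was 4.39% of the basal mean. Basal markers in luminal libraries stood at 0.878% or less of their basal level, beside the 4.39% of Ccn2, and the part of basal cells in the luminal reads of Ccn2 was not tested. Per kilobase of transcript, Ccn2 ranked 17 among 14285 genes in basal cells and 968 in luminal cells, while Ccn1 ranked 161 and 409.

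The Ccn2 locus also carries Gm15270, a non-coding transcript on the opposite strand that shares 665 of the 2861 exon bases of Ccn2. Its counts were 9.64% to 16.2% of those of Ccn2 in each of the 10 libraries. Whether reads were counted by strand is not given in the sources used here, so reads of these genes in the shared bases cannot be told apart. Tube1 shares 482 of the 1419 exon bases of Ccn6 in the same way, and no overlapping exon was found for the other 4 members.

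The balance between Ccn1 and Ccn2 was compared within each library, which needs no scaling factor. The ratio of Ccn1 to Ccn2 counts was 2.13, 1.67, 1.65, 2.19 and 1.93 in the luminal libraries. It was 0.195, 0.163, 0.186, 0.143 and 0.187 in the basal libraries. Reads of Ccn1 outnumbered those of Ccn2 in every luminal library, and reads of Ccn2 outnumbered those of Ccn1 in every basal library. On the log2 scale the ratio was 0.93 ± 0.19 (SD, n = 5) in luminal and -2.53 ± 0.18 (SD, n = 5) in basal cells. The difference of 3.45 gave p = 0.00794 in a two-sided exact permutation test, the smallest p that 5 against 5 libraries allow. This test does not use the replicate numbers, and sign flips within same-numbered pairs gave an exact permutation p of 0.0625, which is not past the threshold and is the smallest that 5 pairs allow. In the plot of Ccn1 against Ccn2, luminal replicate 1 had the lowest and luminal replicate 2 the highest luminal value of both genes.

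**Figure D2:**
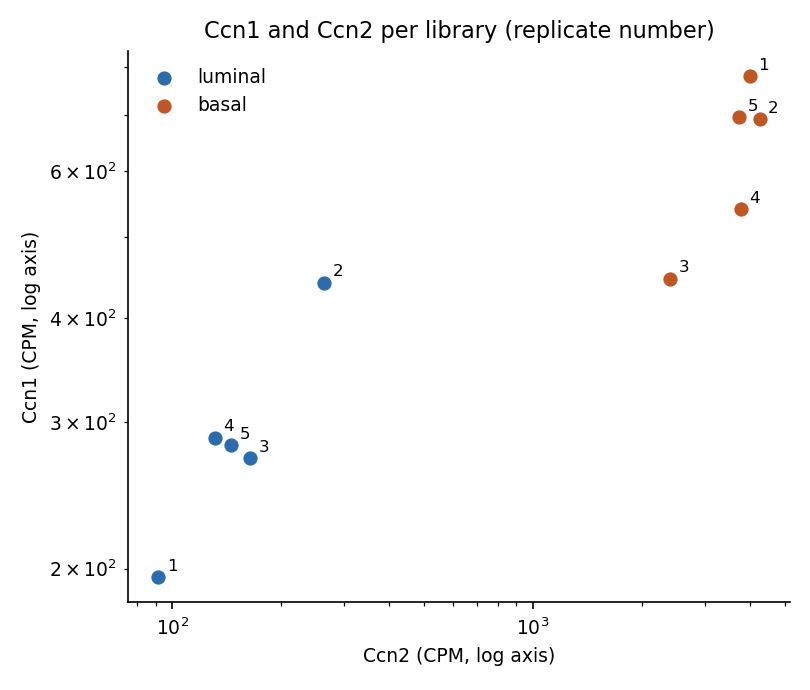
Ccn1 against Ccn2 in CPM, both on log axes, with 1 point per library labelled by its replicate number. The luminal libraries lie left at 91.5 to 264 CPM of Ccn2 and the basal libraries right at 2401 to 4250 CPM, while the Ccn1 values of luminal replicate 2 (441 CPM) and basal replicate 3 (446 CPM) are at almost the same height.

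Ccn4, first described as a WNT1-inducible gene (Entrez 22402, chr15:66891369-66923201, plus strand), was rare in both cell types. The luminal libraries held 4, 9, 2, 0 and 0 counts, and the basal libraries held 27, 73, 33, 48 and 69 counts. In CPM these were 0.250, 0.474, 0.123, 0 and 0 in luminal and 1.68, 4.98, 2.55, 3.0 and 4.14 in basal cells. The lowest basal library was above the highest luminal library. The log2 fold change was -4.13 (SE 0.69, edgeR quasi-likelihood, Benjamini-Hochberg adjusted p = 0.000112), an SE larger than that of Ccn2. Without luminal replicate 2 the log2 fold change was -4.95. Ccn4 passed the count filter only through its basal libraries, so its call adds nothing to the counts above. Per kilobase Ccn4 ranked 12606 among 14285 genes even in basal cells.

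Ccn5, the member without the cysteine-knot module (Entrez 22403, chr2:163820752-163833146, plus strand), ran the other way. The luminal libraries held 345, 37.4, 157, 157 and 202 CPM, and the basal libraries held 0.811, 2.18, 3.25, 1.25 and 0.539 CPM. The basal values rest on 13, 32, 42, 20 and 9 counts. Ccn5 passed the count filter only through its luminal libraries, so its call adds nothing to the counts above. The lowest luminal library, replicate 2, was far above the highest basal library. The mean was 179 ± 111 CPM for luminal and 1.61 ± 1.11 CPM for basal cells (SD, n = 5). The log2 fold change was 6.84 (SE 0.60, edgeR quasi-likelihood, Benjamini-Hochberg adjusted p = 2.09e-07), and all 5 same-numbered pairs had the higher value in luminal cells, with log2 ratios from 4.10 to 8.73. The basal mean was 0.895% of the luminal mean, which lies within the 0.0835% to 21.7% at which the luminal markers stood in basal libraries, and the part of luminal cells in the basal reads of Ccn5 was not tested. Ccn5 also varied more among luminal libraries than the other abundant members, with a highest value 9.21 times the lowest, against 2.26 times for Ccn1 and 2.89 times for Ccn2. Luminal replicate 1 had the most Ccn5 and the least Ccn1 and Ccn2, and luminal replicate 2 had the least Ccn5 and the most Ccn1 and Ccn2.

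Ccn3 (Entrez 18133, chr15:54745910-54753762, plus strand), a member known for growth-restraining effects, had 1, 0, 0, 1 and 3 counts in luminal and 1, 0, 1, 0 and 2 counts in basal libraries. No library was above 3 counts, so Ccn3 was not detectable above that floor, which lies at 0.232 CPM or lower. The value for Ccn3 without a filter, given below, is therefore no measured fold. Ccn6 (Entrez 327743, chr10:39150970-39174376, minus strand) had 8, 6, 9, 5 and 0 counts in luminal and 6, 1, 1, 0 and 2 counts in basal libraries. The groups overlapped. When no filter on low counts was applied, edgeR's quasi-likelihood test gave a log2 fold change of 1.32 for Ccn6 (Benjamini-Hochberg adjusted p = 0.299) and 0.21 for Ccn3 (adjusted p = 0.905), neither past the threshold.

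The make-up of the family was compared per kilobase of transcript, since levels of different genes can be set side by side only after scaling by length. In luminal cells Ccn1 made up 46.4% ± 12.2 (SD, n = 5) of the family, Ccn5 33.3% ± 19.1 (SD, n = 5) and Ccn2 20.2% ± 7.16 (SD, n = 5). The luminal shares of Ccn1 (28.9% to 63.0%) and Ccn5 (6.29% to 60.0%) overlapped. Ccn1 had the largest share in 4 of the 5 luminal libraries, and Ccn5 had it in replicate 1. In basal cells Ccn2 made up 82.2% ± 1.81 (SD, n = 5) and Ccn1 17.7% ± 1.80 (SD, n = 5), and Ccn5 was at 0.0605%. The basal shares lay close together, from 80.5% to 84.9% for Ccn2, although the summed level in basal replicate 3 was the lowest. That sum over the 6 members was 315 ± 26.1 CPM per kilobase (SD, n = 5) in luminal and 1773 ± 344 CPM per kilobase (SD, n = 5) in basal cells, with ranges of 286 to 347 and 1187 to 2052. Ccn3, Ccn4 and Ccn6 each made up at most 0.133% of the family in every library.

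**Figure D3:**
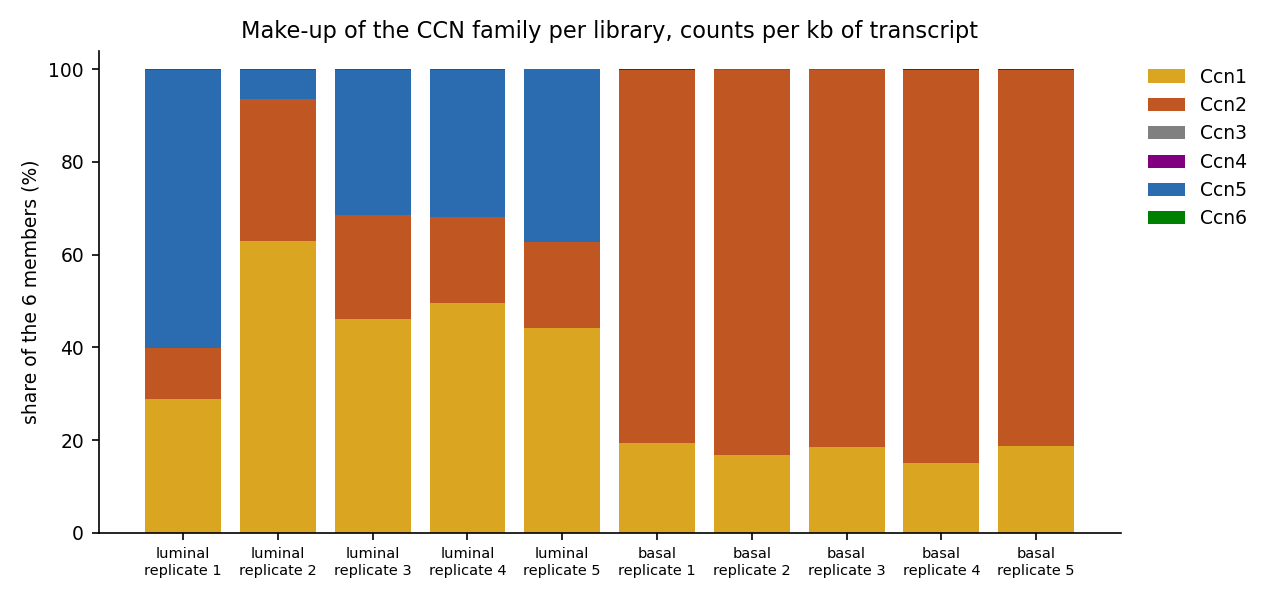
Share of each of the 6 members in the family per library, in percent of their summed counts per kilobase of transcript. Basal bars are filled by Ccn2 (80.5% to 84.9%) and Ccn1, whereas the luminal bars divide among Ccn1, Ccn2 and Ccn5, with Ccn5 from 6.29% in replicate 2 to 60.0% in replicate 1.

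The genes around the family were described by lists, each read beside the median log2 fold change of 0.05 over all genes tested. Of 12 CCN receptors 11 were tested, and 8 were higher in basal and 2 in luminal cells, with a median log2 fold change of -1.36. Among all genes tested, 31.2% were called higher in basal and 33.6% in luminal cells. The 8 include Itga6, whose value is the median, and Itgb2, both with limits given below. The endocytic receptor gene Lrp1, which binds CCN2, stood at 24.0 ± 7.51 CPM in luminal and 1857 ± 295 CPM in basal cells (SD, n = 5), a log2 fold change of -6.27 (SE 0.26). The integrin subunit genes Itgb3 (-5.36, SE 0.34) and Itga5 (-3.40, SE 0.18) were also higher in basal cells on the log2 scale. The integrin subunit genes Itga6 (-1.36) and Itgb1 (-1.06), the syndecan gene Sdc4 (-0.65) and the WNT co-receptor gene Lrp6 (-1.45) were higher in basal cells as well. So was the leukocyte integrin gene Itgb2 (-3.14), at 1.76 ± 0.531 CPM (SD, n = 5) in basal cells. Itgb2 passed the filter only through its basal libraries, so its call adds nothing. CD49f, one of the sorting markers, is the product of Itga6, so the gate itself used that protein and the Itga6 difference is no finding. Notch1, whose product binds CCN3, was higher in luminal cells (log2 fold change 1.51, SE 0.19). Itgb5 was called higher in luminal cells by a small margin (log2 fold change 0.44, edgeR quasi-likelihood, Benjamini-Hochberg adjusted p = 0.0434), and with the replicate number as a block its adjusted p was 0.100. Itgav, the alpha subunit that pairs with Itgb3 and Itgb5, had a log2 fold change of -0.29 that was not past the threshold (edgeR, adjusted p = 0.111), and Itgam was not tested.

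Of 6 growth factor genes whose products CCN proteins bind, 4 were tested, and 2 were higher in basal cells, where 31.2% of all genes tested were called that way, with a median log2 fold change of -0.81. The angiogenic factor Vegfa stood at 506 ± 247 CPM in luminal and 4843 ± 936 CPM in basal cells (SD, n = 5), a log2 fold change of -3.26 (SE 0.33). Tgfb1 differed less, at -0.56 (SE 0.13). Bmp2 (-0.49, SE 0.42) and Bmp4 (-1.05, SE 0.76) were not called, and Igf1 and Igf2 did not pass the filter. Igf2 had 33, 20, 33, 3 and 62 counts in luminal and 0, 0, 5, 0 and 2 counts in basal libraries. With no filter Igf2 was called higher in luminal cells (log2 fold change 4.11, edgeR quasi-likelihood, Benjamini-Hochberg adjusted p = 0.00178). It also passed the filter and was called without luminal replicate 4 or without any 1 of the basal libraries. In those fits Igf2 passed only through its luminal libraries, so those calls add nothing. Bmp4 stood at -0.11 on the log2 scale when basal replicate 4 was left out.

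Of 15 transcriptional regulators of Ccn1 and Ccn2 all 15 were tested, and 9 were higher in basal and 4 in luminal cells, with a median log2 fold change of -0.90. Among all genes tested, 31.2% were called higher in basal and 33.6% in luminal cells. Against a 2-fold change (glmTreat), 3 of the 15 were called higher in basal and 2 in luminal cells. The coactivator genes Yap1 (-1.02, SE 0.14) and Wwtr1, which encodes TAZ (-1.32, SE 0.17), were both higher in basal cells. Their DNA-binding partners divided. Tead1 stood at 74.2 ± 11.2 CPM in luminal and 1079 ± 348 CPM in basal cells (log2 fold change -3.86, SE 0.24), and Tead3 was at -0.97 (SE 0.13). Tead2 stood at 211 ± 44.3 CPM in luminal and 21.1 ± 1.15 CPM in basal cells (log2 fold change 3.32, SE 0.16), and Tead4 was at 2.15 (SE 0.31). The SRF branch divided too: Srf (-1.10, SE 0.20) and its cofactor gene Mrtfa (-1.74, SE 0.14) were higher in basal cells, and Mrtfb (0.92, SE 0.21) was higher in luminal cells. Of the negative regulators, the kinase gene Lats1 (-1.08, SE 0.14) and the TEAD competitor Vgll4 (-0.43, SE 0.12) were higher in basal cells, and Lats2 (-0.07, SE 0.15) was not called. The Vgll4 call was lost with library totals in place of TMM factors (log2 fold change -0.24, edgeR adjusted p = 0.100). Of the TGF-beta mediators, Smad4 (-0.90, SE 0.18) was higher in basal cells and Smad2 (0.24, SE 0.12) was not called. Smad3 was called higher in luminal cells (0.43, edgeR quasi-likelihood, Benjamini-Hochberg adjusted p = 0.0487), with an adjusted p of 0.0714 when the replicate number was a block.

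**Figure D4:**
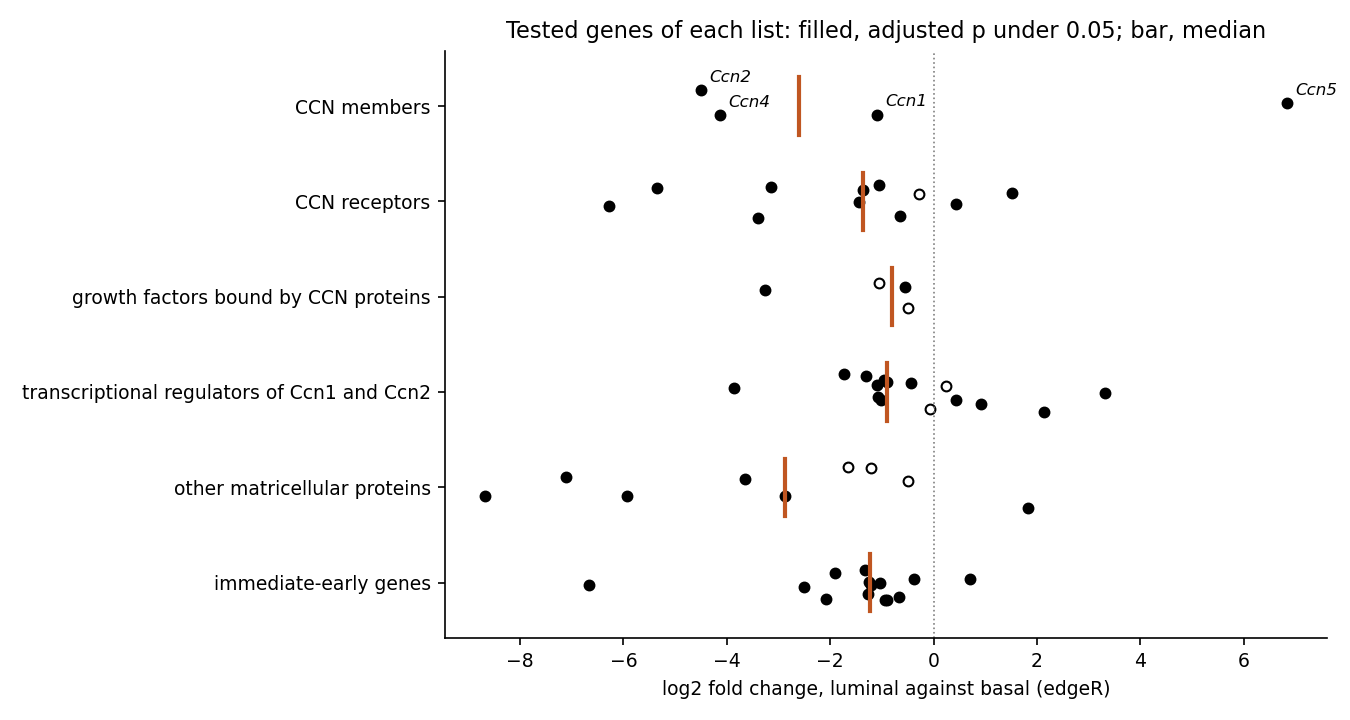
Log2 fold change, luminal against basal, of each tested gene in the CCN family and in 5 lists around it. Filled points had an adjusted p under 0.05 (edgeR quasi-likelihood), open points did not, and the vertical bar is the list's median, which lay below 0 for all 6 lists, while Ccn5 at 6.84 lay farther to the right than any other point.

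Of 10 other matricellular genes, 9 were tested, and 5 were higher in basal and 1 in luminal cells, with a median log2 fold change of -2.87. Among all genes tested, 31.2% were called higher in basal and 33.6% in luminal cells. Periostin (Postn) had the largest difference at -8.67 (SE 0.49), with 8.05 ± 5.11 CPM in luminal and 3293 ± 1237 CPM in basal cells (SD, n = 5). Sparc (-7.12, SE 0.47) and the elastic fibre gene Fbln5 (-5.93, SE 0.48) followed. Leaving out single libraries gave -6.58 to -5.66 for Fbln5. Fbln5 passed the filter only through its basal libraries, so its call adds nothing. The gene higher in luminal cells was Smoc1 (1.83, edgeR quasi-likelihood, Benjamini-Hochberg adjusted p = 0.0393), whose call was lost without luminal replicate 1, 2, 3 or 5 or basal replicate 1, 3 or 4. Smoc1 passed the filter only through its luminal libraries, so its call adds nothing. Ccn2 at -4.51 and Ccn1 at -1.10 both differed less than Postn and Sparc.

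Ccn1 is also an immediate-early gene, switched on within minutes by serum, stretch or cell handling, so the genes of that class were set beside it. Of 14 such genes all 14 were tested, and 13 were higher in basal and 1 in luminal cells, with a median log2 fold change of -1.22. Among all genes tested, 31.2% were called higher in basal and 33.6% in luminal cells. Against a 2-fold change (glmTreat), 4 of the 14 were called higher in basal and 0 in luminal cells. Fos (-0.91), Egr1 (-0.94) and Atf3 (-1.05) had differences close to that of Ccn1, and Egr2 (-6.66), Nr4a1 (-2.51) and Dusp1 (-2.07) had larger ones. The gene higher in luminal cells was Klf6 (0.71), named after its value was seen. Junb was at -0.37 (edgeR quasi-likelihood, Benjamini-Hochberg adjusted p = 0.0471), with an adjusted p of 0.0624 when the replicate number was a block. The summed level of the 14 genes was 2895, 3804, 3166, 3293 and 3125 CPM in the luminal libraries and 9288, 6025, 5305, 6023 and 7302 CPM in the basal libraries. Within each cell type the highest and the lowest library of this sum, luminal replicates 2 and 1 and basal replicates 1 and 3, were also the highest and the lowest for Ccn1. The part of these genes in the Ccn1 result was not tested.

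Markers of other cell types were read in the same libraries, where 31.2% of all genes tested were called higher in basal and 33.6% in luminal cells. The summed level of the 5 pericyte markers was 0 to 2.45 CPM in luminal and 31.7 to 45.4 CPM in basal libraries, and Rgs5, Cspg4 and Kcnj8 were at 0 in 4 luminal libraries. The 4 that passed the filter (these and Pdgfrb) did so through their basal libraries, so their calls add nothing, and Abcc9, which did not pass it, had overlapping values. The sum moved in the direction of Ccn1, Ccn2 and Ccn4, and its part in those results was not tested. The 7 fibroblast markers summed to 27.9 to 117 CPM in luminal and 28.6 to 46.9 CPM in basal libraries, with 1 called in each direction. The highest sum was in luminal replicate 1, which also had the most Ccn5, but 95.1 CPM of it was Dcn. Without Dcn, a choice made after the values were seen, the other 6 summed to 21.95, 21.4, 22.6, 16.3 and 36.1 CPM in luminal libraries 1 to 5, with replicate 5 the highest, and to 18.1 to 35.3 CPM in basal libraries. Of those 6, Pdgfra was called, as higher in basal cells (log2 fold change -1.09, SE 0.30). The study's sorting methods describe antibodies to CD31, TER-119 and CD45, which mark endothelial and blood cells, beside EpCAM and CD49f, and the sample labels name only the last 2. The 6 endothelial markers summed to 68.4 to 116 CPM in luminal and 7.44 to 16.9 CPM in basal libraries, and Vwf by itself was at 81.6 ± 18.7 CPM (SD, n = 5) in luminal libraries. The other endothelial markers went the other way in their means. The endothelial cadherin gene Cdh5 was at 0.217 ± 0.167 CPM in luminal and 4.58 ± 1.48 CPM in basal cells (SD, n = 5), a log2 fold change of -4.37 (SE 0.51), and Kdr, Emcn and Tie1, which were not tested, had means of 0.0228 to 0.159 CPM in luminal and 0.384 to 0.776 CPM in basal cells. Cdh5 passed the filter only through its basal libraries, so its call adds nothing. Its level moved in the direction of Ccn1, Ccn2 and Ccn4, and its part in those results was not tested. The 6 immune markers summed to 15.6 to 21.8 CPM in luminal and 26.4 to 52.9 CPM in basal libraries, with 2 called in each direction and Cd3e at 0 in all 10 libraries. Cd74 was at 2.62 ± 1.19 CPM in luminal and 20.7 ± 7.89 CPM in basal cells (SD, n = 5), a log2 fold change of -2.97 (SE 0.36), in the direction of Ccn1, Ccn2 and Ccn4, while Cd52 (2.03, and 2.83 without basal replicate 4) and Lyz2 (1.69) were higher in luminal cells, in the direction of Ccn5. Neither Cd52 nor Lyz2 was called against a 2-fold change (glmTreat of edgeR, adjusted p = 0.0544 and 0.124). Cd52 and Lyz2 passed the filter only through their luminal libraries, so their calls add nothing. The part of Cd74, Cd52 and Lyz2 in those results was not tested. The 4 adipocyte markers summed to at most 1.06 CPM, with Adipoq at 0 in all 10.

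The genes whose levels followed each member most closely over the 10 libraries were found by Pearson's r of log2(CPM + 1) among 10791 genes, as a description. The 10 points fall into a luminal and a basal cluster, and r of at least 0.9 was reached by 249 genes with Ccn1, 1896 with Ccn2, 1260 with Ccn4 and 1399 with Ccn5. The highest values for Ccn1 were those of Gm45928 (0.990), Cdc16 (0.986) and Nufip1 (0.980). For Ccn2 they were Gm15270 (0.997), the overlapping transcript described above, Adamtsl5 (0.997), and the activin-binding protein gene Fst (0.995). For Ccn4 they were Samd9l (0.982), Tgtp1 (0.976) and Rin1 (0.975).

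For Ccn5 the closest genes were the haptoglobin gene Hp (0.993), the immune checkpoint gene Vtcn1 (0.993) and the progesterone receptor gene Pgr (0.993). Pgr stood at 611, 86.0, 248, 253 and 426 CPM in the luminal libraries and at 5.43 to 8.74 CPM in the basal libraries. The order of the luminal libraries was the same for Pgr as for Ccn5 at both ends, with replicate 1 the highest and replicate 2 the lowest. Although Pgr spanned 7.11-fold and Ccn5 9.21-fold among luminal libraries, the ratio of Ccn5 to Pgr counts lay between 0.436 and 0.632, a span of 1.45-fold. The ratio to Hp counts lay between 0.123 and 0.226 (1.85-fold, with Hp itself spanning 13.4-fold), and the ratio to Vtcn1 counts lay between 0.879 and 3.21 (3.65-fold, wider than the 2.52-fold of Vtcn1 itself). These 3 genes were picked for their likeness to Ccn5 in the same libraries. The estrogen receptor gene Esr1, also a marker of hormone-responsive luminal cells, was at 101, 106, 112, 85.7 and 108 CPM in the same libraries and did not share that spread. Elf5, a transcription factor of luminal progenitors, was at 127, 89.6, 66.7, 55.7 and 122 CPM.

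**Figure D5:**
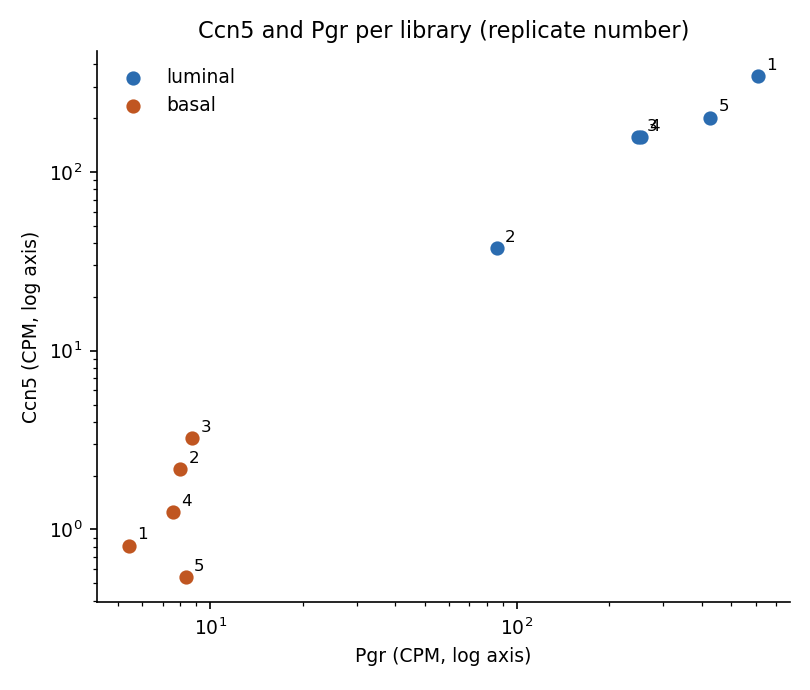
Ccn5 against Pgr in CPM, both on log axes, with 1 point per library labelled by its replicate number. The luminal libraries rise together from replicate 2 (86.0 CPM of Pgr, 37.4 CPM of Ccn5) to replicate 1 (611 and 345 CPM), and the basal libraries reach at most 8.74 CPM of Pgr and 3.25 CPM of Ccn5.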

How the data were processed

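The deposited table holds unnormalized counts of reads for each gene, in 1 column per library. The submitters' processing notes name cutadapt 4.2 and Bowtie2 2.3.5.1 and the builds mm10 and hg19, and the study's methods give mm10 for mouse reads. Those methods name a different version of Bowtie2, so the version used is not settled here. The counting tool, its annotation and its use of strand are not given in the sources used here, and reads that span a splice junction are not aligned by Bowtie2. Groups follow the label for cell type, which the source name and the letter in the library description share and which the titles contradict in all 10 libraries. Luminal and basal libraries of 1 number also have the same leading number in that description, taken here to be the animal. Deviations from the group means correlated by -0.105 to 0.169 within same-numbered pairs (mean 0.0369, against -0.00626 for other pairs). The study's methods speak of biological replicates in its RNA-seq, fewer in number than the 5 libraries of each cell type, and the labels do not say that libraries came from separate animals, so p-values measure the spread between these libraries, and no pair agreed within sampling noise (lowest chi-square per degree of freedom 26.7 in luminal and 12.0 in basal libraries).

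Of 24594 genes, 24570 had a symbol in the RefSeq gene table and 24 did not. filterByExpr of edgeR 4.0.16 (R 4.3.3; minimum count 10, minimum total 15) kept 14609 and dropped 9985. Counts were scaled with TMM factors and tested with edgeR's quasi-likelihood test, with cell type as its sole term and Benjamini-Hochberg adjustment over all genes tested, and called at 0.05. Fold changes without a printed p are from this test, and their calls follow the same threshold. The SE was obtained as |log2 fold change| over the square root of F. Lengths are those of the longest GENCODE M21 transcript. Alternatives were relative log expression and upper-quartile factors, library totals only, no filter, at least 10 counts in every library, DESeq2 1.42.0, limma voom (limma 3.58.1), glmTreat, the replicate number as a block and leaving out each library. The members and gene lists were chosen with earlier results of these data known. All members, receptors, growth factors and regulators were open to naming, and from the other lists the 3 called genes with the largest change plus Fos, Egr1, Atf3 and Junb. For each tested member the 3 genes with the highest Pearson's r were named, among those averaging 10 CPM or more in the higher group. Esr1, Klf6, Smoc1, Spp1, Kdr, Emcn, Tie1, Pdgfrb, Abcc9, Cd3e and Adipoq fall outside these rules and were named after their values were seen.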

Additional observations from a re-analysis of the deposited data

Results flagged for a closer look

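In 17 of 194 groups of 5 values, a single library stood apart from the other 4 by Dixon's test at the 95% level, which chance alone gives in about 1 of 20 groups. Of the CCN members this was Ccn2, which was at 2401 CPM in basal replicate 3 against 3733 to 4250 CPM in the other basal libraries, still above the 264 CPM of the highest luminal library. Among the genes around the family, Notch1 was at 121 CPM in luminal replicate 4 (others 202 to 230), Bmp4 at 4.0 CPM in basal replicate 4 (others 0 to 1.09) and Lats2 at 169 CPM in basal replicate 4 (others 133 to 143). Of the immediate-early genes, Dusp1 was at 135 CPM in luminal replicate 2 (others 86.6 to 100.1) and Atf3 at 987 CPM in basal replicate 1 (others 488 to 576). Of the genes most like a member, Adamtsl5 was at 1.16 CPM in luminal replicate 2 (others 0.250 to 0.508) and Hp at 2.09 CPM in basal replicate 3 (others 0.273 to 0.688).

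The remaining values belong to cell type markers. The summed luminal markers were at 2162 CPM in basal replicate 1 (others 1433 to 1615), and the smooth muscle gene Myh11 was at 4.0 CPM in luminal replicate 5 (others 1.25 to 1.84). Of the pericyte markers, Rgs5 (0.797 CPM), Kcnj8 (0.491 CPM) and Cspg4 (0.0613 CPM) were found in luminal replicate 3 and at 0 in the other luminal libraries. In basal libraries, Kcnj8 was at 4.49 CPM in replicate 1 (others 1.23 to 2.06), Cspg4 at 5.81 CPM in replicate 5 (others 1.39 to 2.25), the fibroblast marker Pdgfra at 19.4 CPM in replicate 3 (others 9.94 to 11.5) and the immune marker Cd52 at 3.06 CPM in replicate 4 (others 0.300 to 0.998).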

How the results depend on the processing

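Ccn2, Ccn4 and Ccn5 kept their direction and their call under every alternative in which they were tested. Their log2 fold changes were -4.75 to -4.31, -4.95 to -3.83 and 6.48 to 7.24. Ccn4 passed the filter only through its basal libraries, and with all 10 libraries Ccn5 passed it only through its luminal libraries. Their kept calls therefore add nothing. Ccn1 kept its direction (-1.27 to -0.90) and lost its call only against a 2-fold change (-1.10, adjusted p = 0.378, glmTreat). With at least 10 counts in every library, Ccn4 and Ccn5 were not tested, which left 0 members called higher in luminal cells. When the replicate number entered as a replicate block, the log2 fold changes were -1.11 for Ccn1, -4.57 for Ccn2, -4.34 for Ccn4 and 6.63 for Ccn5, and the paired sign-flip test of the Ccn1 to Ccn2 ratio (difference 3.45) gave an exact p of 0.0625, the smallest that 5 pairs allow. Upper-quartile factors and library totals shifted the median log2 fold change by 0.12 and 0.19. Under them Lats2 turned to 0.053 and 0.11, and leaving out single libraries gave -0.18 to 0.032 for Lats2, above 0 without luminal replicate 1. limma voom turned Bmp4 to 0.077, and leaving out basal replicate 4 gave -0.11. Upper-quartile factors and library totals added a call for Smad2 (edgeR adjusted p = 0.0205 and 0.0103), and library totals ended that of Vgll4 (0.100). With no filter, Igf2 and Spp1 gained a call (higher in luminal cells). Smoc1 was not tested with at least 10 counts in every library and lost its call against a 2-fold change. The causes were not tested. Against a 2-fold change, smaller differences such as those of Yap1 and Srf also lost their calls. The calls of Itgb5, Smad3 and Junb, all close to the threshold, were lost under 6, 5 and 5 settings. Itgb5 also lost its call without luminal replicate 1, 2 or 5 or basal replicate 1, 2 or 5 (highest adjusted p 0.114), Smad3 without luminal replicate 2 or 3 or basal replicate 2, 3 or 4 (0.178) and Junb without luminal replicate 1, 2, 3 or 5 or basal replicate 1, 4 or 5 (0.105). At this depth Ccn3 and Ccn6 and, in luminal cells, Ccn4 had at most 9 counts in a library, too few to give a precise value.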
